A study of Homo sapiens with 12 samples.

Results

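ID1, ID2 and ID3, the inhibitor of DNA binding factors, were described together with 5 genes of BMP and activin signaling that act as feedback regulators or as a ligand subunit, namely SMAD6, SMAD7, SMURF1, SKIL and INHBB. These 8 genes were picked by symbol out of the 36866 genes in the deposited table, and their levels in these same libraries were known when they were picked. Their levels and their differences between treatments are therefore given as a description, without a p-value. The study treated THP-1 and U-937 cells with honokiol, a biphenolic compound of magnolia bark, or with DMSO, the solvent, for 24 h. THP-1 and U-937 are human acute myeloid leukemia (AML) lines of monocytic origin, both labelled as having a complex karyotype, and each is 1 line, so that the differences between them are differences between 2 lines. The 12 RNA-seq libraries fell into 4 groups of 3: THP-1 with 0.1% DMSO, THP-1 with honokiol, U-937 with 0.1% DMSO and U-937 with honokiol. The sample labels list honokiol at 20 and 35 µM without saying which dose went to which line. The doses behind the 2 lines can therefore not be told from the labels. For other assays the paper gives each line its own dose, but it names none for the sequencing. Line and dose may thus differ together wherever honokiol responses are compared between the lines, and the part of dose was not tested. Nothing in the labels says that the 3 libraries of a group came from separate cultures.

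BMPs and activins are secreted dimers that bring together type I and type II receptor kinases, which phosphorylate SMAD proteins that enter the nucleus with SMAD4. BMP receptors act mainly through SMAD1, SMAD5 and SMAD9, and activin and TGF-β receptors act mainly through SMAD2 and SMAD3. The ID genes are classical direct targets of BMP signaling. Their proteins have a helix-loop-helix but no DNA-binding region, and they hold E proteins such as TCF3 away from DNA. In blood cells ID proteins restrain lineage factors of the bHLH class. SMAD6 and SMAD7 are inhibitory SMADs that are themselves induced by the pathway, SMURF1 is a ubiquitin ligase that removes SMADs and receptors, and SKIL (SnoN) represses SMAD targets. INHBB encodes the βB subunit of activin B and inhibin B.

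The promoters of the 5 genes whose honokiol libraries lay apart from the DMSO libraries in at least 1 line are shown first, as the 250 bases before the RefSeq start on the strand of the gene. All 8 genes had an entry, with 10 starts in all, since SMAD7 had 3. The windows are chr20:31605039-31605288 (plus strand) for ID1, chr2:8681806-8682055 (plus) for ID2, chr15:66701986-66702235 (plus) for SMAD6, chr3:170357465-170357714 (plus) for SKIL and chr2:120345886-120346135 (plus) for INHBB in GRCh38.p14. Capitals mark the motifs that were searched on both strands: the SMAD palindrome GTCTAGAC, the core GGCGCC known from BMP-responsive elements, the cAMP response element TGACGTCA, the E-box CACGTG, the TATA box TATAAA and the box named for its letters CCAAT. On the other strand the last of these reads as ATTGG in the lines that follow.
ID1: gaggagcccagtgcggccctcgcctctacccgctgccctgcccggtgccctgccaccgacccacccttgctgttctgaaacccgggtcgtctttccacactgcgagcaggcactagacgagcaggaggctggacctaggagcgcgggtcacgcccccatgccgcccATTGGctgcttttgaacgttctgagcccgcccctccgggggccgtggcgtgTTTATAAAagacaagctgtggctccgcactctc
ID2: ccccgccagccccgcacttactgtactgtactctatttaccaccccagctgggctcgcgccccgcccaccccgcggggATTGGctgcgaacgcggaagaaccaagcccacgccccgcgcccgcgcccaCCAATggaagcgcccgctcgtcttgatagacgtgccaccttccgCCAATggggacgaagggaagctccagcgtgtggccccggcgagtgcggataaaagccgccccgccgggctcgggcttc
SMAD6: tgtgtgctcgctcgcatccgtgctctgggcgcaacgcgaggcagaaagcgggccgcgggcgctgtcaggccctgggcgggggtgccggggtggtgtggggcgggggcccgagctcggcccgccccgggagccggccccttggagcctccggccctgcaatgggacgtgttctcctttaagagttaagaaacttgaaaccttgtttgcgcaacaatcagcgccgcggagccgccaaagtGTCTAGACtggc
SKIL: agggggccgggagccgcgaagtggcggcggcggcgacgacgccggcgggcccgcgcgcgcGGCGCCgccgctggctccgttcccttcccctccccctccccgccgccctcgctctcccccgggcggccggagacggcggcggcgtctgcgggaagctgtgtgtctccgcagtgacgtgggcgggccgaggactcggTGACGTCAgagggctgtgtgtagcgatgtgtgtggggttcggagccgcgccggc
INHBB: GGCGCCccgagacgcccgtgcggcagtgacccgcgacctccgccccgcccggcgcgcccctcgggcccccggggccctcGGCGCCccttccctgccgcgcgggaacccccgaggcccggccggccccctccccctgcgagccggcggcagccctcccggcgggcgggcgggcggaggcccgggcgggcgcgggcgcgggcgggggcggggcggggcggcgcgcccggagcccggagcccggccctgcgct

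The SMAD palindrome stood in the SMAD6 window alone, with its first base at -12 from the start, and 0.182% of the 35116 RefSeq promoters of the same length held it. GGCGCC stood in SKIL at -190 and in INHBB at -250 and -171, against 16.4% of all promoters. SKIL also held TGACGTCA at -54, which 1.65% of all promoters held. ID1 held a CCAAT on the other strand at -84 and a TATA box on both strands, at -31 and -33, as overlapping letters. ID2 held 3 CCAAT, at -172, -122 and -78, and CCAAT occurred in 32.0% and TATAAA in 10.7% of all promoters. No window of the 8 genes held CACGTG, against 6.34% of all promoters. CACGTG is 1 form of the E-box, and other forms were not searched. Of the 3 SMAD7 starts 1 had a TATA box, at -35. The GC content was 66.0% for ID1, 69.2% for ID2, 68.0% for SMAD6, 78.4% for SKIL and 89.6% for INHBB, against a median of 58.0% over all promoters. These matches are descriptions of letters in a window and were not tested against the expression values.

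The table gives each gene an FPKM, which counts fragments per transcript length and library size, and an estimated count. Estimated counts summed to 57406966 to 75065752 per library. The most frequent low count was 4 (17264 values), above 10103 values of 1, 9533 of 2 and 6764 of 3. No source states how many counts a fragment gave. If it was about 4, the sums correspond to 14351742 to 18766438 fragments. Mitochondrially encoded genes took a larger share in DMSO replicate 1 of each line, 13.7% in THP-1 and 12.6% in U-937, while the remaining 10 libraries gave 5.61% to 7.55%, so a log2 fold change of honokiol or between the lines is also given without them where this moved it by more than 1.5 times or turned its sign. The 12 monocytic and myeloid markers were all at an FPKM of 0.5 or more in at least 1 THP-1 library of each treatment, and 11 of 12 were in U-937. Of 4 T cell, 4 erythroid and 4 epithelial markers none reached this level in any library. Of 4 B cell markers 3 did, with MS4A1 at 0, and of 4 fibroblast markers 1 did in THP-1 and none in U-937. Their part in the results below was not tested. In bulk RNA a lower level can mean fewer cells with the transcript or less transcript per cell, and the 2 cannot be told apart.

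**Figure D1:**
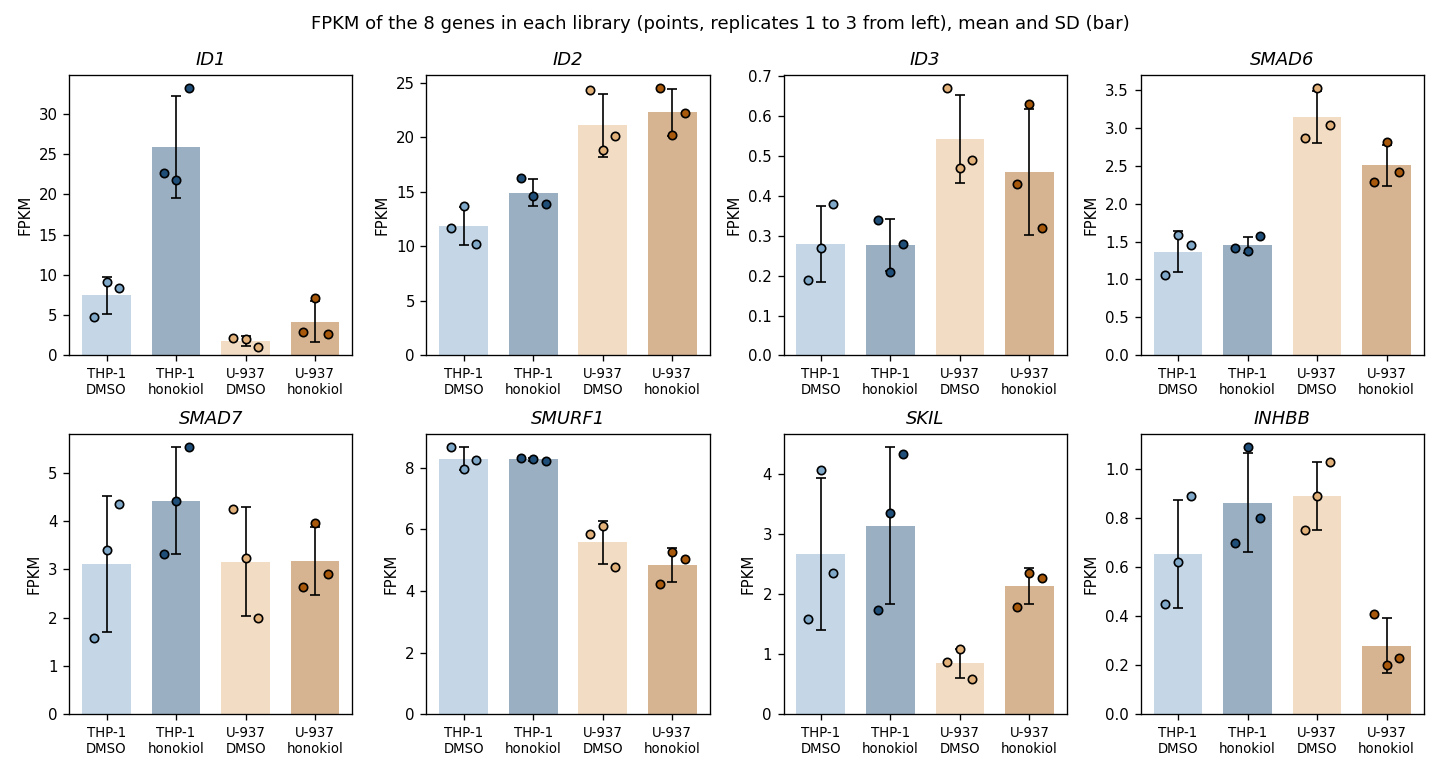
FPKM of ID1, ID2, ID3, SMAD6, SMAD7, SMURF1, SKIL and INHBB in the 12 libraries, 1 panel per gene with its own axis from 0. Points are libraries and bars the mean with SD of 3 libraries. ID1 lay higher with honokiol in both lines, SKIL was higher and INHBB lower with honokiol in U-937, and the THP-1 groups of SKIL and INHBB overlapped.

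ID1 (ENSG00000125968, chr20:31605283-31606515, plus strand) had the largest difference of the 8 genes in THP-1 and lay higher with honokiol in both lines. Its FPKM in THP-1 was 4.78, 9.12 and 8.43 with DMSO and 22.64, 21.78 and 33.19 with honokiol. The lowest honokiol value was above the highest DMSO value, and the lowest DMSO value was that of replicate 1, the library with the high mitochondrial share. The means were 7.44 ± 2.33 and 25.9 ± 6.35 (SD, n = 3). On the log2 scale honokiol was higher by 1.75 (standard error 0.26), or 3.37-fold. Without DMSO replicate 1 the log2 fold change was 1.55. In U-937 the FPKM of ID1 was 2.14, 2.07 and 1.06 with DMSO and 2.89, 7.08 and 2.65 with honokiol. These groups did not overlap either, but honokiol replicate 2 lay far above the other 2 honokiol libraries. The means were 1.76 ± 0.604 and 4.21 ± 2.49 (SD, n = 3), and honokiol was higher by 1.14 on the log2 scale (standard error 0.46). This difference was 0.56 without honokiol replicate 2 and 1.34 without DMSO replicate 1.

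ID1 was also the member with the largest difference between the lines. In the DMSO libraries its log2 fold change of U-937 over THP-1 was -2.10 (standard error 0.39), and the 3 THP-1 values all lay above the 3 U-937 values. The honokiol response of U-937 minus that of THP-1 was -0.63 on the log2 scale (standard error 0.56), less than 2 standard errors from 0. It was -0.22 with DMSO replicate 1 of both lines left out and -1.21 at its lowest with 1 library left out.

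ID2 (ENSG00000115738, chr2:8678845-8684453, plus strand) was the member with the highest FPKM in 3 of the 4 groups, ID1 being higher in THP-1 with honokiol. In THP-1 its FPKM was 11.67, 13.73 and 10.21 with DMSO and 16.28, 14.59 and 13.91 with honokiol. The groups did not overlap, by a small margin of 13.73 against 13.91. The log2 fold change was 0.28 (standard error 0.16). In U-937 the FPKM of ID2 was 24.32, 18.82 and 20.07 with DMSO and 24.49, 20.20 and 22.18 with honokiol. These groups overlapped, and the log2 fold change was -0.01 (standard error 0.17), or 0.13 without DMSO replicate 1. In the DMSO libraries ID2 was higher in U-937 by 0.78 on the log2 scale (standard error 0.20), without overlap, which is the opposite order to ID1. ID2 overlaps ID2-AS1 on the other strand, whose FPKM reached at most 1.33, and no source states whether counting used strand.

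ID3 (ENSG00000117318, chr1:23557926-23559501, minus strand) was near the lower end of what the libraries measured. Its FPKM in THP-1 was 0.19, 0.27 and 0.38 with DMSO and 0.34, 0.21 and 0.28 with honokiol. In U-937 it was 0.67, 0.47 and 0.49 with DMSO and 0.43, 0.63 and 0.32 with honokiol. Both pairs of groups overlapped, and ID3 stayed under the limit used for testing, which asks for 3 libraries of a fit with an FPKM of 0.5 or more. It rested on 22 to 69 estimated counts, or about 5.5 to 17.25 fragments per library at 4 counts each, so a difference of the size seen for ID1 in U-937 would be poorly resolved. The other 7 members passed this limit in every comparison, INHBB in the U-937 treatments through its DMSO libraries alone.

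SMAD6 (ENSG00000137834, chr15:66702236-66782849, plus strand), the inhibitory SMAD that acts mainly on BMP signaling, was the 1 member with an SMAD palindrome in its promoter window. In THP-1 its FPKM was 1.06, 1.58 and 1.46 with DMSO and 1.41, 1.37 and 1.57 with honokiol. The groups overlapped, and the log2 fold change was 0.04 (standard error 0.18), turning to -0.08 without DMSO replicate 1. In U-937 it was 2.86, 3.52 and 3.04 with DMSO and 2.29, 2.81 and 2.42 with honokiol. Here every honokiol library lay below every DMSO library, although 2.81 and 2.86 were close, and the log2 fold change was -0.41 (standard error 0.15), or -0.45 without DMSO replicate 1. SMAD6 and ID1, both known as BMP targets, thus lay on opposite sides of their DMSO libraries in U-937. In the DMSO libraries SMAD6 was higher in U-937 than in THP-1 by 1.15 on the log2 scale (standard error 0.20), without overlap.

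SMAD7 (ENSG00000101665, chr18:48919853-48952052, minus strand), which blocks both the BMP and the activin or TGF-β branch at the receptor, was spread widely within groups. In THP-1 its FPKM was 1.59, 3.40 and 4.36 with DMSO and 3.32, 4.43 and 5.54 with honokiol. In U-937 it was 4.25, 3.24 and 1.99 with DMSO and 2.64, 3.97 and 2.91 with honokiol. The groups overlapped in both lines. The log2 fold change was 0.47 (standard error 0.33) in THP-1 and 0.18 without DMSO replicate 1. It was -0.10 (standard error 0.31) in U-937 and 0.21 without DMSO replicate 1 there. Between the lines under DMSO it was 0.00 (standard error 0.40), and -0.65 with DMSO replicate 1 of both lines left out. No direction could be given for SMAD7.

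SMURF1 (ENSG00000198742, chr7:99027438-99144100, minus strand) was the steadiest member in THP-1. Its FPKM there was 8.68, 7.96 and 8.27 with DMSO and 8.32, 8.28 and 8.24 with honokiol, a log2 fold change of -0.06 (standard error 0.13), turning to 0.02 without DMSO replicate 1. In U-937 it was 5.86, 6.11 and 4.79 with DMSO and 4.24, 5.28 and 5.04 with honokiol, a log2 fold change of -0.30 (standard error 0.17). The groups overlapped in both lines. Under DMSO SMURF1 was lower in U-937 than in THP-1 without overlap (log2 fold change -0.62, standard error 0.18). It overlaps TRRAP on the other strand, which reached an FPKM of 15.47, and reads of the 2 genes could be mixed if counting ignored strand.

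SKIL (ENSG00000136603, chr3:170357678-170396835, plus strand), a repressor that binds SMAD2, SMAD3 and SMAD4, was higher with honokiol in U-937. Its FPKM in U-937 was 0.86, 1.08 and 0.59 with DMSO and 1.78, 2.35 and 2.26 with honokiol. The groups lay well apart, with means of 0.843 ± 0.245 and 2.13 ± 0.306 (SD, n = 3). On the log2 scale honokiol was higher by 1.24 (standard error 0.26), or 2.36-fold. This value ranged from 1.02 to 1.44 with 1 library left out and was 1.28 without DMSO replicate 1. In THP-1 SKIL was 1.58, 4.06 and 2.35 with DMSO and 1.73, 3.35 and 4.32 with honokiol. These groups overlapped over most of their range, and the log2 fold change was 0.19 (standard error 0.39), turning to -0.10 without honokiol replicate 3 and to -0.05 without DMSO replicate 1. The response of U-937 minus that of THP-1 was 1.04 (standard error 0.52), and 0.62 without DMSO replicate 2 of THP-1. Under DMSO SKIL was lower in U-937 (log2 fold change -1.69, standard error 0.37) without overlap, so that the honokiol libraries of U-937 came within the range of the THP-1 libraries.

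INHBB (ENSG00000163083, chr2:120346136-120351803, plus strand), the 1 ligand subunit among the members, was lower with honokiol in U-937. Its FPKM in U-937 was 0.75, 0.89 and 1.03 with DMSO and 0.41, 0.20 and 0.23 with honokiol. The groups did not overlap, with means of 0.890 ± 0.140 and 0.280 ± 0.114 (SD, n = 3). The log2 fold change was -1.74 (standard error 0.35), or 3.35-fold lower, and -0.84 on the log2(FPKM + 0.5) scale, which compresses low values. The honokiol libraries rested on 46 to 94 estimated counts and the DMSO libraries on 163 to 255. In THP-1 INHBB was 0.45, 0.62 and 0.89 with DMSO and 0.70, 1.09 and 0.80 with honokiol. These groups overlapped, and the log2 fold change was 0.36 (standard error 0.32), on the other side of 0 from U-937. It was 0.19 without DMSO replicate 1 and 0.17 without honokiol replicate 2. The response of U-937 minus that of THP-1 was -2.12 (standard error 0.50), the largest difference of responses among the 7 members fitted, and it stayed between -2.49 and -1.92 with 1 library left out. With DMSO replicate 1 of both lines left out it was -2.02. Over all 20 alternatives this difference ranged from -2.49 to -1.09. Under DMSO the 2 lines overlapped for INHBB (log2 fold change 0.40, standard error 0.35), and the value was 0.26 with both of those libraries left out.

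**Figure D2:**
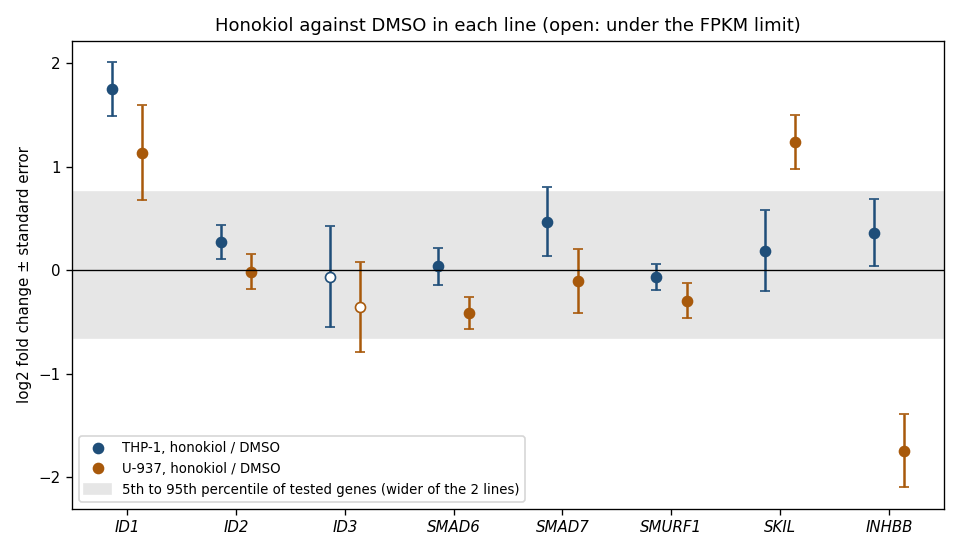
Log2 fold change of honokiol over DMSO for the 8 genes (blue THP-1, brown U-937), with standard errors from edgeR. The grey band spans the 5th to the 95th percentile of all genes tested, and ID3 is drawn open because it lay under the FPKM limit. ID1 lay above 0 in both lines, SKIL stood at 1.24 in U-937 and 0.19 in THP-1, and INHBB at -1.74 and 0.36.

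The counts of members called stand here beside those of all genes. A gene was called when edgeR's quasi-likelihood test gave a Benjamini-Hochberg adjusted p under 0.05 with an absolute log2 fold change above 1. In THP-1 0 of the 7 members were called, where 0.0411% of the 14600 genes tested were called. At an unadjusted p under 0.05 1 member passed (ID1), against 13.1% of all genes. DESeq2 called 1 (ID1) against 1.71% of all genes, and limma-trend on log2(FPKM + 0.5) called 0 members and 0 genes. In U-937 0 of 7 members were called, against 0.0947% of 13726 genes. There 4 passed an unadjusted p under 0.05 (ID1, SKIL, INHBB and SMAD6) against 16.7% of all genes. DESeq2 called 2 (SKIL and INHBB) against 1.62%, and limma-trend called 0 against 0.117%. INHBB entered this fit only through the group in which it was high, so its place in these counts supports nothing. Libraries of the 2 treatments were apart for 2 of 7 members in THP-1 (ID1 and ID2, both higher), against 20.6% of all genes in either direction and 13.0% higher. They were apart for 4 of 7 in U-937, against 24.2%. Of these, ID1 and SKIL were higher, against 16.7% of all genes, and INHBB and SMAD6 were lower, against 7.50%. For the difference of the responses, 0 of 7 members were called by edgeR against 0.111% of 16283 genes. There 1 (INHBB) passed an unadjusted p under 0.05 against 9.37%, DESeq2 called 1 (INHBB) against 1.52%, and limma-trend called 0 against 0.0123%. Since the members were chosen with these differences known, nothing about the group is read from these counts.

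Under DMSO the 2 lines differed for many genes. Of the 7 members 3 were called, against 32.4% of the 14617 genes tested. SMAD6 was the 1 called higher in U-937, against 13.9% of all genes, and ID1 and SKIL were the 2 called lower, against 18.4%. The SMAD6 call was lost without DMSO replicate 1 of THP-1 and with limma-trend on log2(FPKM + 0.5). The libraries of the lines did not overlap for 5 of 7, against 57.6% of all genes. The levels of the members were known when they were picked, so these calls and counts are no support for a difference. The honokiol comparisons use the same DMSO libraries as this comparison, and a DMSO library that is low for a gene moves both.

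**Figure D3:**
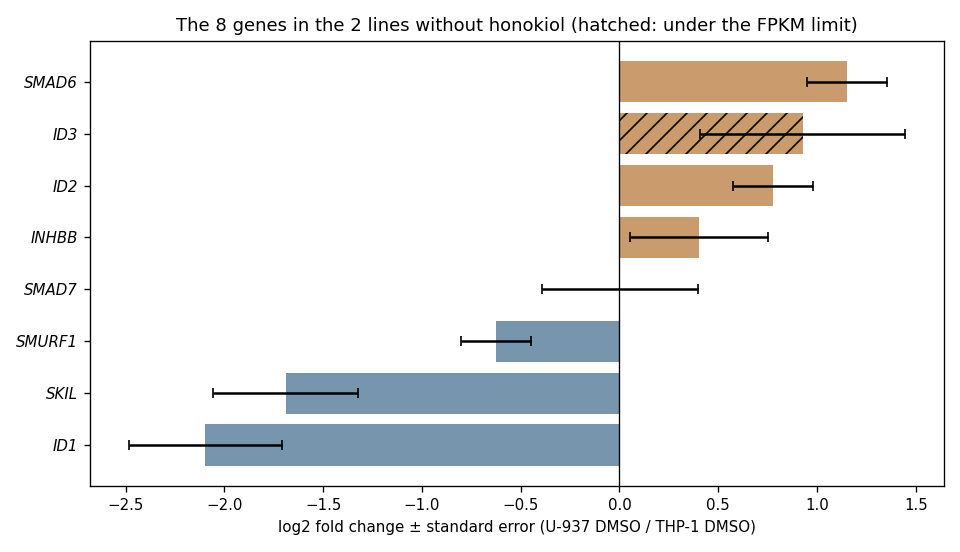
Log2 fold change of DMSO-treated U-937 over DMSO-treated THP-1 for the 8 genes, with standard errors. ID3 is hatched because it lay under the FPKM limit. SMAD6 and ID2 stood at 1.15 and 0.78, SMAD7 at 0.00, and SMURF1, SKIL and ID1 at -0.62, -1.69 and -2.10.

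By mean FPKM, a scale per transcript length, the order of the members in DMSO-treated THP-1 was ID2, SMURF1, ID1, SMAD7, SKIL, SMAD6, INHBB and ID3. The neighbours SMURF1 and ID1, SMAD7 and SKIL, and SKIL and SMAD6 were not ordered beyond the spread of their libraries. With honokiol ID1 moved to the first place, and ID2, SMURF1, SMAD7, SKIL, SMAD6, INHBB and ID3 followed, with an overlap of SMAD7 and SKIL alone. In DMSO-treated U-937 the order was ID2, SMURF1, SMAD7, SMAD6, ID1, INHBB, SKIL and ID3. There SMAD7 and SMAD6, INHBB and SKIL, and SKIL and ID3 overlapped. With honokiol it was ID2, SMURF1, ID1, SMAD7, SMAD6, SKIL, ID3 and INHBB. The 5 genes from SMURF1 to SKIL each overlapped the next, as did ID3 and INHBB. ID2 lay at the 91.5 to 95.1 percentile of all genes in the table in the 4 groups and ID3 at the 54.6 to 64.4 percentile.

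The genes whose log2(FPKM + 0.5) followed a member most closely within both lines, by the smaller of the Pearson correlations over the 6 libraries of each line among 11495 genes, are given as a description. For ID1 these were RHOU (0.92), ZCCHC24 (0.92) and ABCG1 (0.92). For ID2 they were DUSP8P5 (0.80), YPEL3 (0.78) and MYO9B (0.76), so no gene followed ID2 as closely. SMAD6 was followed by ANKRD39 (0.95), MMP15 (0.94) and SCRIB (0.94), SMAD7 by RNA5SP82 (0.94), LIMK1 (0.89) and PIM1 (0.89), and SMURF1 by OGDH (0.87), GTF2H4 (0.85) and CDK11B (0.85). SKIL was followed by MYG1-AS1 (0.92), ZNF226 (0.87) and KCNE3 (0.84), and INHBB by ST8SIA4 (0.92), MIR25 (0.91) and RNF126 (0.91). The 6 points of a line share treatment and depth differences, and the highest values among so many genes are high by selection. The pairs of members named next were picked from all pairs, each over the same 6 libraries per line. ID1 and SMAD7 correlated at 0.76 in THP-1 and 0.62 in U-937, and SMAD6 and SMURF1 at -0.91 and 0.75. ID1 and SKIL correlated at 0.47 in THP-1 and 0.83 in U-937, while for ID1 and INHBB it was 0.61 in THP-1 but -0.83 in U-937.

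The rest of the pathway was taken from a textbook list of 86 genes, of which 81 were in the table. The list had 29 ligands, 12 extracellular antagonists and carriers, 15 receptors and co-receptors, 8 signal-transducing SMADs and anchors, 10 other negative regulators, 6 other SMAD targets and 6 genes of ID4 and the bHLH partners. In THP-1 45 of them were tested, 1 was called higher (GDF1) and 0 lower, against 0.0411% of all genes called. At an unadjusted p under 0.05 9 passed, against 13.1% of all genes. DESeq2 called 4, among them GDF1, GDF15 and INHBE, against 1.71% of all genes. In U-937 44 were tested and 0 were called by edgeR, while 14 passed an unadjusted p under 0.05 against 16.7% of all genes. DESeq2 called 2 there (GDF15 and ACVRL1) against 1.62% of all genes. GDF15 entered that fit through its honokiol libraries alone, so its place in these counts supports nothing. For THP-1 the median log2 fold change of the list was 0.07 and that of all genes tested 0.00. For U-937 these medians were -0.01 and 0.02.

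Among the ligands GDF1, a ligand of the activin branch, was called higher with honokiol in THP-1. Its FPKM was 0.85, 0.85 and 0.96 with DMSO and 8.35, 4.54 and 4.82 with honokiol, with no overlap. The log2 fold change was 2.68 (standard error 0.29, edgeR adjusted p = 0.0458). The call was lost without any 1 of the 3 DMSO libraries or of honokiol replicates 2 and 3 (adjusted p of 0.103 to 0.198), and it held without honokiol replicate 1 (adjusted p = 0.0336). It was also lost with limma-trend, without the filter on low genes and with the replicate block. GDF1 lies on the same strand as CERS1 and overlaps it, and the mean FPKM of CERS1 was 6.94 with DMSO and 1.72 with honokiol. Reads of the 2 genes could have been split between them. Whether reads moved from CERS1 to GDF1 or GDF1 itself was higher was not tested. In U-937 the log2 fold change of GDF1 was -0.59 (standard error 0.46), and the difference of the responses was -3.28 (standard error 0.59, adjusted p = 0.0794), past the threshold by DESeq2 and not by edgeR.

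GDF15, a stress-induced ligand of a distant receptor, had a log2 fold change close to 3 in both lines but did not pass the test. Its THP-1 FPKM was 0.42, 0.53 and 0.39 with DMSO and 2.52, 3.27 and 7.39 with honokiol. Its U-937 FPKM was 0.16, 0.19 and 0.09 with DMSO and 0.63, 1.66 and 1.69 with honokiol. The groups did not overlap in either line. By edgeR the log2 fold changes were 3.22 (THP-1, standard error 0.44, adjusted p = 0.0607) and 3.02 (U-937, standard error 0.50, adjusted p = 0.0687), and DESeq2 called GDF15 in both. In U-937 GDF15 passed the FPKM limit through its honokiol libraries alone and has no value without any 1 of them, so this test and call are no support for a response there. TGFB1, the most abundant ligand named here, had a THP-1 FPKM of 84.4 ± 7.30 with DMSO and 64.4 ± 3.33 with honokiol, and a U-937 FPKM of 147 ± 47.0 and 90.7 ± 6.41 (SD, n = 3). Neither difference passed (edgeR adjusted p = 0.285 and 0.186), and the libraries did not overlap in either line. The TGFB1 log2 fold change in U-937 was -0.80, and -0.48 without DMSO replicate 1. For BMP8B the THP-1 log2 fold change was -0.86 and the U-937 one was -0.44. GDF11, a ligand of activin receptors, had -0.58 in U-937, and INHBE, the activin βE subunit, had 1.42 in THP-1 (0.84 without honokiol replicate 3). Libraries of the treatments were apart for these, and edgeR called none of them. BMP8A and BMP8B are near-identical copies, and reads could be split between them. TGFB1 overlaps HNRNPUL1 and less abundant genes on the other strand. The mean FPKM of HNRNPUL1 was 96.4 (DMSO) and 87.0 (honokiol) for THP-1, and 103.9 (DMSO) and 90.3 (honokiol) for U-937. GDF11 overlaps SARNP on the other strand, whose U-937 means were 11.7 (DMSO) and 11.9 (honokiol). Reads of such pairs could be mixed if counting ignored strand, which was not tested.

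Among receptors, SMADs, partners and targets edgeR called 0 genes for honokiol in either line. For ACVR2B, an activin type II receptor, the log2 fold change in THP-1 was 0.57 (standard error 0.13). For ACVRL1, a type I receptor of the BMP branch, it was 0.46 (THP-1, 0.26 without DMSO replicate 1) and 1.29 (U-937, from an FPKM of 0.380 ± 0.131 with DMSO, SD, n = 3). BAMBI, a decoy receptor, had -0.52 in U-937. ZFYVE16, an endosomal SMAD anchor, had a log2 fold change of 0.94 in U-937 (standard error 0.16, edgeR adjusted p = 0.0687) with FPKM values of 0.97, 1.15 and 1.14 with DMSO and 1.90, 2.34 and 2.42 with honokiol. SMAD4 had 0.39 in U-937 and TGIF1, a corepressor, 0.52 in THP-1. TCF3, an E protein that ID factors bind, was at 31.45, 22.93 and 25.87 with DMSO and 15.95, 17.28 and 15.69 with honokiol in U-937, a log2 fold change of -0.81 (standard error 0.16, edgeR adjusted p = 0.0898). In THP-1 TCF3 overlapped between treatments (log2 fold change -0.36). LYL1, a bHLH factor of blood cells, had -0.46 in U-937. For CDKN1A, a cell cycle inhibitor among the other SMAD targets, the THP-1 log2 fold change was -0.46.

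**Figure D4:**
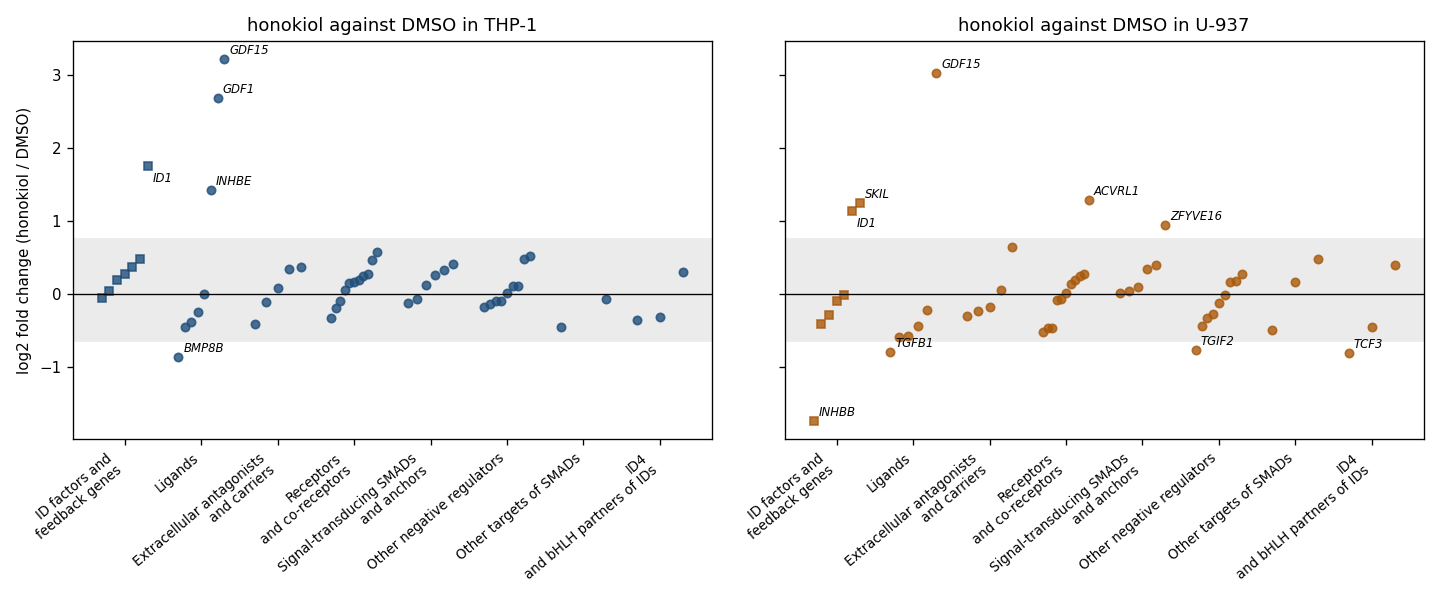
Log2 fold change of honokiol over DMSO for the members (squares) and the pathway list genes tested and reported (circles) by role, 1 panel per line, each role in order of its values. The grey band spans the 5th to the 95th percentile of all genes tested. GDF15 stood at 3.22 and 3.02, GDF1 at 2.68 in THP-1, and ID1 lay above the band in both lines.

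For the difference of the responses between lines 49 list genes were tested and 0 were called, while 6 passed an unadjusted p under 0.05 against 9.37% of all genes. Besides GDF1, genes with low p-values were ZFYVE16 (0.61), ENG (-0.64) and LTBP4 (-0.62), given as U-937 minus THP-1 on the log2 scale. Their edgeR adjusted p-values were 0.433 to 0.470. With DMSO replicate 1 of both lines left out LTBP4 was -0.27. The dose may have differed along with the line, and its part in these differences of responses was not tested.

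The list genes were also compared between the lines under DMSO. Of 46 list genes tested 19 were called, against 32.4% of all genes. Of these 7 were higher in U-937, against 13.9% of all genes, and 12 were lower, against 18.4%. Nothing about the list as a whole is read from these counts. The ligands BMP2, BMP8A, BMP8B, GDF11 and INHBE were lower in U-937. BMP8B had an FPKM of 44.45, 26.56 and 36.02 in THP-1 and 1.70, 1.79 and 2.06 in U-937. The log2 fold change was -4.34 (standard error 0.26, edgeR adjusted p = 6.79e-06). BMP8B overlaps OXCT2 on the same strand (mean FPKM 4.80 in THP-1 and 0.14 in U-937 with DMSO) and PPIE on the other (11.1 and 3.07). BMP8A overlaps OXCT2P1 on the same strand (3.14 and 0.03). Reads of overlapping genes could have been mixed, which was not tested. BMP2 had 1.77, 2.56 and 1.83 in THP-1 and 0, 0.06 and 0.06 in U-937 (log2 fold change -5.71, standard error 0.81, edgeR adjusted p = 0.000579). AMH, the anti-Müllerian hormone, was the 1 ligand called higher, from 0.0967 ± 0.0231 in THP-1 to 7.25 ± 0.870 in U-937 (SD, n = 3). Its log2 fold change was 6.07 (standard error 0.31, edgeR adjusted p = 3.99e-06). AMH, BMP2, BMP8A and INHBE passed the FPKM limit only through the line in which they were high. Their calls and p-values are therefore no support for a difference.

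Among the carriers and antagonists LTBP1 and LTBP4, which bind latent TGF-β, were higher in U-937 (log2 fold changes of 6.87 and 1.71), and FSTL1 and LTBP3 were lower (-2.60 and -2.29). LTBP1 had an FPKM of 0.02, 0.03 and 0.04 in THP-1 and 4.64, 3.01 and 4.10 in U-937. Of the receptors ACVRL1 was lower in U-937 (-3.81), from 5.30 ± 1.58 to 0.380 ± 0.131. BAMBI (2.75) and TGFBR1, the type I receptor of TGF-β (2.04), were higher. TGFBR1 was spread widely, with an FPKM of 4.65, 12.24 and 4.92 in THP-1 and 12.71, 29.04 and 52.37 in U-937. CDKN1A, a cell cycle inhibitor among the SMAD targets, was lower in U-937 (-2.15). The edgeR adjusted p-values of these genes were at most 0.0115. The calls of ACVRL1, BAMBI, TGFBR1, LTBP4 and CDKN1A held without any 1 library. For TGFBR1 the edgeR adjusted p was 0.0467 without DMSO replicate 1 of THP-1. LTBP1, FSTL1 and LTBP3, like AMH, BMP2, BMP8A and INHBE, passed the FPKM limit through 1 line alone, so their calls and p-values are no support. They could not be fitted without a library of that line, so the effect of such a library is not known. No SMAD of the signal-transducing group and neither TCF3 nor LYL1 was called between the lines, while 3 of 6 in the SMAD group passed an unadjusted p under 0.05, against 54.0% of all genes.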

How the data were processed

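THP-1 and U-937 cells received honokiol or DMSO for 24 h, and poly(A) RNA was sequenced in 3 libraries per group. The labels and the study's methods name different Illumina instruments. The submitters' processing notes name Bowtie 0.12.2, HISAT2 2.0 and StringTie 1.3.0 with no role, and the mouse build mm8. The table holds human genes with GRCh38 coordinates (35762 of 36866 found in GENCODE 29, 22476 with the same start and end). The annotation release is not given in the sources used here. The authors deposited FPKM values, scaled by them to transcript length and library size, and estimated counts per gene, which they did not normalize. All columns of per-sample values were mapped.

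The estimated counts are whole numbers and were tested with edgeR 4.0.16 (quasi-likelihood, TMM) in R 4.3.3 on genes for which 3 or more libraries of a fit had an FPKM of 0.5 or more. Calls need a Benjamini-Hochberg adjusted p under 0.05 and a log2 fold change beyond 1 in either direction, or the adjusted p alone for the difference between lines. Standard errors come from the log2 fold change and the F statistic. Each line was fitted alone, the difference of responses in 1 fit of 12 libraries, and the lines under DMSO in a fit of 6. The test was checked on simulated counts. Libraries of a group correlated at r of 0.958 to 0.979 on log2(FPKM + 0.5), and none were identical. P-values cover the spread between these libraries, which may be technical.

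Alternatives were DESeq2 1.42.0, limma 3.58.1 (limma-trend on log2(FPKM + 0.5) and log2(FPKM + 0.1)), RLE size factors, no filter, a replicate block, counts divided by 4, each library left out, and one fit of all 12 libraries. Leaving out both DMSO libraries numbered 1 was added after the values were seen. The members and lists were chosen with earlier results of these data known. The list genes named are, by unadjusted p, up to 10 without overlap in a honokiol comparison and 5 for the difference, and up to 12 called genes with a mean FPKM of at least 1 between the lines, by size of change. The result of 1 list gene is counted but not reported here. Values were summarised in Python 3.11.15 with pandas 2.3.3. Promoter sequences are RefSeq's, in GRCh38.p14. Raw reads were not used here.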

Additional observations from a re-analysis of the deposited data

How the results depend on the processing

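The numbers of genes called depended on the test. In THP-1 6 genes and 1 pathway gene were called by edgeR. DESeq2 called 250 and 4, one fit of all 12 libraries 33 and 2, and limma-trend with either pseudocount, no filter on low genes and the replicate block 0 and 0. In U-937, where edgeR called 13 genes and 0 pathway genes, DESeq2 called 223 and 2, one fit of all 12 libraries 108 and 1, and the replicate block 0 genes. For the difference between the lines (18 genes, 0 pathway genes) DESeq2 called 248 and 1, limma-trend 1 (pseudocount 0.1) and 2 (pseudocount 0.5), and counts divided by 4 and the replicate block 0. Without both DMSO libraries of number 1 it was 7 genes. Between the lines under DMSO (4730 genes, 19 pathway genes) leaving out those 2 libraries gave 2831 and 10, and no filter gave 29 pathway genes. The cause of these changes was not tested. With 1 library left out, the calls ranged from 0 to 43 in THP-1 (pathway 0 to 2), 0 to 6 in U-937 (pathway 0 to 0), 1 to 22 for the difference (pathway 0 to 0) and 3341 to 4210 between the lines (pathway 14 to 19). The highest THP-1 count, 43, came without honokiol replicate 1. The replicate numbers were checked by correlating deviations of libraries from the mean of their group on the log2 scale. Same-numbered DMSO and honokiol libraries gave -0.184 to 0.128 in THP-1 and -0.155 to -0.0914 in U-937. The numbers were therefore not taken as pairs of treatments. Same-numbered DMSO libraries of the lines gave 0.0404 to 0.141, and differently numbered ones -0.158 to 0.051. DMSO replicate 1 had a larger mitochondrial share in both lines, and its part in these values was not tested. Under the replicate block ID1 in THP-1 was 1.77, and SKIL and INHBB in U-937 were 1.28 and -1.80.

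Of 438 log2 fold changes of the members under alternatives, 413 lay within 1 SD of replicates, 25 moved by more, and 18 had the opposite sign to the main value. On the log2(FPKM + 0.5) scale INHBB in U-937 was -0.84 and SKIL 0.98, since the pseudocount is large beside their FPKM. Without any 1 of the U-937 DMSO libraries INHBB no longer passed the FPKM limit in the U-937 comparison and has no value there. Counting limits ID3 and INHBB most.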
